A study of Mus musculus with 6 samples.

Results

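The genes described here copy DNA in S phase and supply its building blocks. They were chosen by function from a list of 52 symbols, with earlier results of these data known. A gene counted as measured where an array row was annotated with that gene and no other. All 52 were measured, of 19938 genes with such a row, and all entered the test because no filter on low values was applied. Whole brains, olfactory bulb to brain stem, were taken on embryonic day 16.5, and their RNA was read on 6 arrays. The 3 mutant brains carried Tdp2Δ1-3, an allele that the series title calls a knock-out, and the 3 wild-type brains were Tdp2+/+. Tdp2 encodes the phosphodiesterase that frees DNA ends from trapped topoisomerase II. The labels name no strain, sex, litter or Cre driver, and the deposited text speaks of 3 independent pairs of brains. Nothing in it ties a replicate number to a pair.

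DNA replication begins when the origin recognition complex, with Cdc6 and Cdt1, loads the Mcm2 to Mcm7 ring onto DNA in G1 phase. Kinases, Cdc45 and the GINS complex then turn the ring into an active helicase, and polymerases, a sliding clamp and a ligase complete the 2 daughter strands. Many of these genes are transcribed by E2F factors once a cell commits to dividing, and they are turned down when neural progenitors become neurons. At this age the brain holds both dividing progenitors, mainly along the ventricles, and neurons that no longer divide.

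Values were on a log2 scale and centred on each row's median over the 6 arrays, so a value gives an array's distance from that median and no gene's level. Levels cannot be compared between genes, and the presence of brain markers cannot be checked. Centring on the median of 6 also makes the 2 middle values equal and opposite. Where all mutants lie above all wild types these are the lowest mutant and the highest wild-type value, and where they lie below, the highest mutant and the lowest wild-type value. Array medians over all rows lay between -0.011 and 0.014. Tdp2 had values of -1.05, -0.90 and -0.94 in the mutant brains and 0.90, 1.10 and 1.34 in the wild-type brains, a difference of -2.07 ± 0.10 (SE), so it fell in the labelled mutants (limma adjusted p = 0.00035). Differences are mutant minus wild type throughout, with limma's moderated SE over 3 arrays per genotype, and a gene is said to rise or fall where its p, adjusted by Benjamini-Hochberg over 23410 array rows, was under 0.05. The labels call the samples of a genotype biological replicates.

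By median, transcripts of the 52 listed replication and nucleotide synthesis genes were higher in the mutant brains. Of the 52 genes, 23 rose, 0 fell and 29 did not pass, where 2.34% of all rows tested rose and 4.13% fell. All 52 differences were positive, against 56.8% of all rows. None reached 1.5-fold. Only 0.188% of all rows both rose by that test and passed 1.5-fold, which leaves no contrast in a list of 52. The median difference was 0.27, a ratio of 1.21, beside a median of 0.013 over all rows, and the extremes were Orc5 at 0.03 and Tk1 at 0.57. In 43 of the 52 genes every mutant value exceeded every wild-type value, as in 13.1% of all rows. All 23 genes that rose were among these 43, so their lack of overlap is no further support. The list was chosen with earlier results of these data known, so these shares describe it and do not test it. The values are tissue averages, in which more cells that express a gene and more RNA per cell cannot be told apart. The number that rose depended on the arrays used. With mutant arrays 1, 2 and 3 left out in turn it was 28, 1 and 12, where 3.68%, 0.137% and 0.842% of all rows rose. With wild-type arrays 1, 2 and 3 left out in turn it was 17, 7 and 20, where 1.14%, 0.504% and 1.82% of all rows rose. In these 6 fits no gene fell, and the median of the 52 genes stayed between 0.21 and 0.31.

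**Figure D1:**
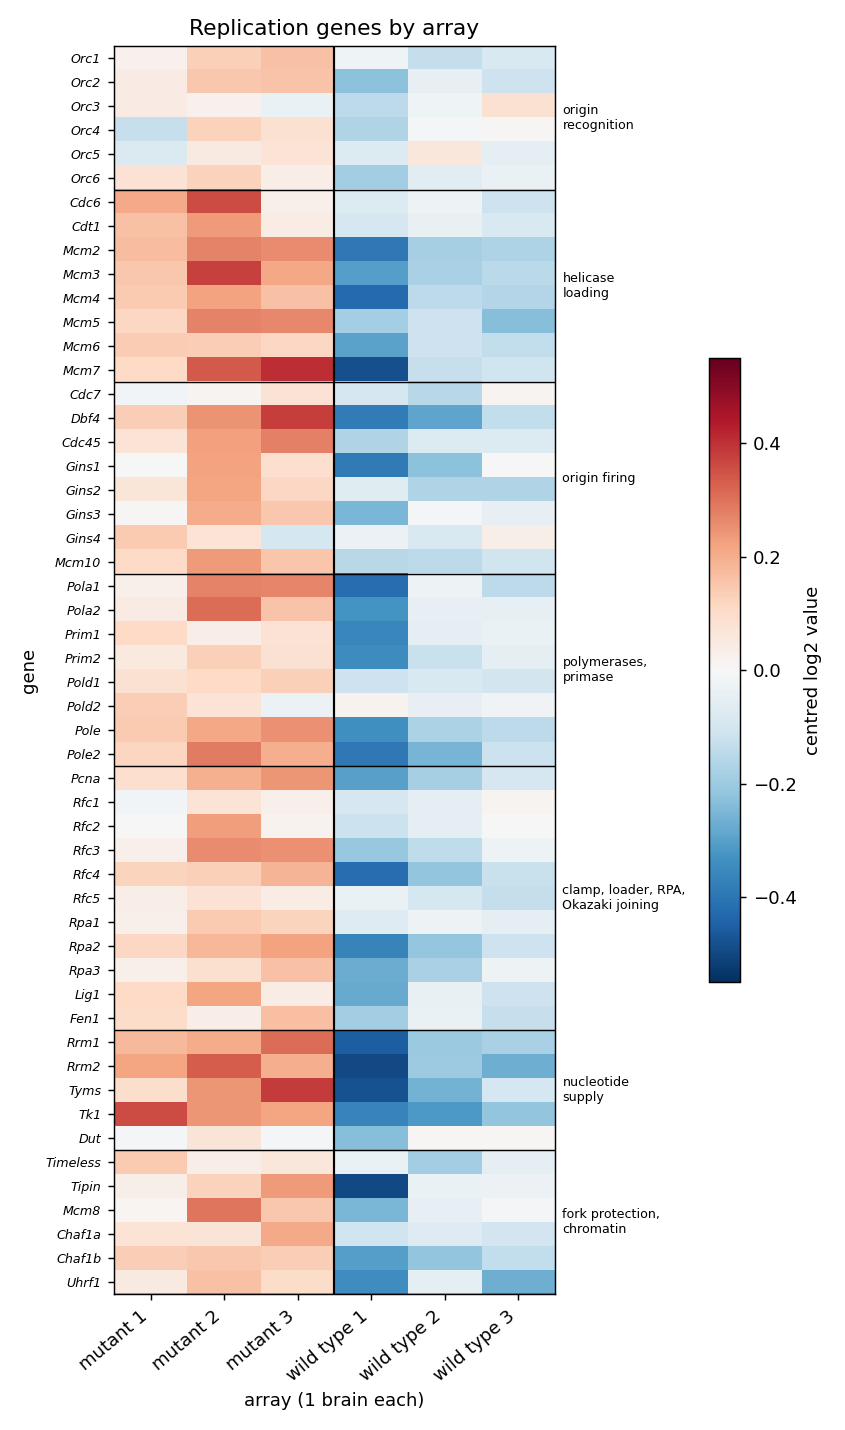
Centred log2 value (colour) of the 52 replication and nucleotide synthesis genes (rows, grouped by role) in each of the 3 mutant and 3 wild-type brains (columns). In 43 genes all mutant squares are above 0 and all wild-type squares below it, and wild-type replicate 1 holds the lowest of the 6 values in 42 of the 52 genes.

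The 3 arrays of a genotype were not alike. Mutant replicate 2 had the highest of the 6 values in 27 of the 52 genes, against 5140 of the 23410 rows, and wild-type replicate 1 had the lowest in 42, against 21.4% of all rows. The median of the 52 genes was 0.09, 0.19 and 0.15 in mutant replicates 1, 2 and 3, and -0.25, -0.10 and -0.10 in wild-type replicates 1, 2 and 3. The genotypes did not overlap in that median, mutant replicate 1 lay nearest to the wild types, and wild-type replicate 1 lay farthest from the mutants.

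Nucleotide supply held the largest differences. Of its 5 genes, 4 rose, with a median difference of 0.52. Tk1, the cytosolic thymidine kinase that salvages thymidine, had values of 0.36, 0.24 and 0.21 in the mutant brains and -0.37, -0.32 and -0.21 in the wild-type brains, a difference of 0.57 ± 0.06. Rrm2, the small subunit of the ribonucleotide reductase that makes deoxyribonucleotides, had 0.22, 0.33 and 0.20 in the mutants and -0.50, -0.20 and -0.27 in the wild types, a difference of 0.57 ± 0.08. The large subunit gene Rrm1 had 0.18, 0.20 and 0.31 in the mutants and -0.45, -0.20 and -0.18 in the wild types, a difference of 0.51 ± 0.08. No mutant value of these 3 genes came down to a wild-type value, and their folds were 1.49, 1.49 and 1.42 (limma adjusted p = 0.0047, 0.010 and 0.013). Tyms, thymidylate synthase, also rose, by 0.52 ± 0.11. Dut, the dUTPase that keeps uracil out of DNA, had a difference of 0.09 ± 0.07 (limma adjusted p = 0.52), and its genotypes overlapped. A further array row annotated as Tk1 also rose, by 0.29 ± 0.06. Rows of near-identical gene copies can share probes, which was not checked here. The 2 Tk1 rows disagree in size, so the 0.57 belongs to the row used. Without mutant replicate 2 only Tk1 of the 5 genes passed.

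All 6 subunits of the Mcm2 to Mcm7 helicase rose. Mcm2 had values of 0.17, 0.27 and 0.26 in the mutant brains and -0.39, -0.18 and -0.17 in the wild-type brains, a difference of 0.48 ± 0.07 (limma adjusted p = 0.010). Mcm5 had 0.11, 0.27 and 0.26 in the mutants and -0.19, -0.11 and -0.23 in the wild types, a difference of 0.39 ± 0.06. Mcm3 had 0.15, 0.38 and 0.21 in the mutants and -0.30, -0.18 and -0.15 in the wild types, a difference of 0.45 ± 0.07. In each of these 3 genes the mutants lay above the wild types with no overlap. Mcm4, Mcm6 and Mcm7 rose by 0.42 ± 0.08, 0.31 ± 0.06 and 0.52 ± 0.11, so the subunits ran from 1.24-fold for Mcm6 to 1.44-fold for Mcm7. Whether subunits differ from one another was not tested. The 2 loading factors did not pass, although their genotypes did not overlap. Cdt1, which brings the ring to the origin, had a difference of 0.22 ± 0.06 (limma adjusted p = 0.063) and Cdc6, the loading ATPase, of 0.27 ± 0.08 (0.089). Both were lowest among the mutants in replicate 3, at 0.04 for Cdt1 and 0.03 for Cdc6, and both passed without that array. The number of loading genes that rose, 6 of 8, was 0 without mutant array 2 and 2 without wild-type array 2.

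The promoters of the helicase genes are shown because their transcripts moved together and E2F is their textbook regulator. RefSeq windows of build GRCm38.p6, running from 250 bases before a start site to 50 after it, were held for 44 of the 52 genes. Several windows were held for 8 of these genes, and for such a gene the window with most E2F words is shown. They were searched on both strands for the E2F words TTTGGCGC, TTTCCCGC, TTTCGCGC and TTTGCCGC, for CCAAT, the core of the NF-Y site, and for TTTGAA and TTTAAA, the core words of the CHR element of cell-cycle genes. Capitals mark E2F and CCAAT words on either strand, which overlap one another in Mcm5, Mcm6 and Mcm7. The Tk1 and Orc5 windows, of the genes with the largest and the smallest difference, follow those of the helicase. The windows lie at chr6:88898731-88899030 on the minus strand for Mcm2, chr1:20820263-20820562 on the minus strand for Mcm3, chr8:75109259-75109558 on the plus strand for Mcm5, chr1:128359656-128359955 on the minus strand for Mcm6, chr5:138171834-138172133 on the minus strand for Mcm7, chr11:117825965-117826264 on the minus strand for Tk1 and chr5:22550289-22550588 on the minus strand for Orc5.
Mcm2: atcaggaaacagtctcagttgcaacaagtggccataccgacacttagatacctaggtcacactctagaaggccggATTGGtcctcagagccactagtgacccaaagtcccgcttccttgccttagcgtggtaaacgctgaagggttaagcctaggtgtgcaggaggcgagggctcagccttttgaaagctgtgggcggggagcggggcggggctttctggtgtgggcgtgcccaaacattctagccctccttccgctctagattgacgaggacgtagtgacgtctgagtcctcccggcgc
Mcm3: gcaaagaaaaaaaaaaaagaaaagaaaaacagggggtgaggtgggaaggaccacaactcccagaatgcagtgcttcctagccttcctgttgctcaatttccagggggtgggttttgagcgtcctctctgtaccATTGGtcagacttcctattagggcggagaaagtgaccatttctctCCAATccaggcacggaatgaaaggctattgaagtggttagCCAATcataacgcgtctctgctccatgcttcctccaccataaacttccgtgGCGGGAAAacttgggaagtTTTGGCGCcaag
Mcm5: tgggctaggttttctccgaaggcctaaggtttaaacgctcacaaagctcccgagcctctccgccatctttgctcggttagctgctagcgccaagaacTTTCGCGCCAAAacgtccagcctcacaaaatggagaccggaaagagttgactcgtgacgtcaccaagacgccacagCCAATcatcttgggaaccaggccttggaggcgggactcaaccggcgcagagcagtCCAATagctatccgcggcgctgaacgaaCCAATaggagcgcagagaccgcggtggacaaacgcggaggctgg
Mcm6: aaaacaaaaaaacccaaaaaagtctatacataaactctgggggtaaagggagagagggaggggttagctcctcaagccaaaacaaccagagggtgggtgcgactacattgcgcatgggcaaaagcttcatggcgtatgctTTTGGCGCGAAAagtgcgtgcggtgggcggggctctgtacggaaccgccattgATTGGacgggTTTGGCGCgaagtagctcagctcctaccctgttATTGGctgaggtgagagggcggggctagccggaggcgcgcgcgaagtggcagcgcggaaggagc
Mcm7: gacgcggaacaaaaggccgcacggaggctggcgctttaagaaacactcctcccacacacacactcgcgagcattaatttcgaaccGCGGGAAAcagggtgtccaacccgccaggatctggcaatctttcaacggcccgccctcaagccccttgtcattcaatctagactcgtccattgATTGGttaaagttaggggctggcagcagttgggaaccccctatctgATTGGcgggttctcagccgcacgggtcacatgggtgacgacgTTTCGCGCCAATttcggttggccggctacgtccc
Tk1: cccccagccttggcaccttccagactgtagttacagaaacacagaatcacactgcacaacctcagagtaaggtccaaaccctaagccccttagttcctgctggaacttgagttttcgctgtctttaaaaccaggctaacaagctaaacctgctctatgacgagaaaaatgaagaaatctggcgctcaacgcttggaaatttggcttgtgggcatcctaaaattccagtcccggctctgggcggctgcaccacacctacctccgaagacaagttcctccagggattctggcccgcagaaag
Orc5: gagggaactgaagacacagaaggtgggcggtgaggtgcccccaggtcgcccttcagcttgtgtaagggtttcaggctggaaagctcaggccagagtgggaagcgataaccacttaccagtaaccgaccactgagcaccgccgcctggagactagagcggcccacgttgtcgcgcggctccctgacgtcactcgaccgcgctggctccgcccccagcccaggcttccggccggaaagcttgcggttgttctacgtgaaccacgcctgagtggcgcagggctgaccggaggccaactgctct

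In every set, a gene counted as holding a word where any of its windows in that set held it. Windows of 16 of the 44 genes (36.4%) held an E2F word, against 704 of all 27025 genes with a window and 3.29% of protein-coding ones. Since E2F words contain CG, windows of protein-coding genes at least as rich in CG as the lower quartile of the 44 genes were counted too, and 5.13% of those genes held one. Among the helicase genes, the shown windows of Mcm3, Mcm5, Mcm6 and Mcm7 each held at least 2 words. The Mcm2 window held none, and no window was held for Mcm4. The 2 Mcm5 words overlap on opposite strands, as do 2 of the 3 Mcm6 words, each pair covering 1 stretch of bases. Both Mcm3 words and 1 of the 2 Mcm7 words lay after the start site. Of the 22 E2F words in all windows of the 44 genes, 9 lay at or after it. A further Mcm7 window held no E2F word. The E2F word was about as common in genes that rose as in those that did not pass. It was present in 7 of 20 genes that rose (35.0%) and in 9 of 24 that did not pass (37.5%), among them Cdc6, Cdt1, Orc1 and Lig1, and absent from the windows of Tk1, Rrm1, Rrm2 and Tyms. CCAAT was held by 59.1% of the 44 genes, against 41.1% of all genes and 38.5% of the CG-rich protein-coding ones. A CHR word was held by 27.3% of the 44 genes, which is below the 30.6% of all genes and above the 15.5% of the CG-rich protein-coding ones. It was present in 35.0% of the genes that rose and in 20.8% of those that did not pass. A word match is not evidence of binding. Nor does a missing exact word show that a gene lacks a site.

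Origin recognition genes differed least by median. The 6 subunits of the complex that marks origins had a median difference of 0.13. By limma 0 of 6 passed, with 3 at an unadjusted p under 0.05, as had 5115 of all 23410 rows. Orc2 had values of 0.05, 0.15 and 0.16 in the mutant brains and -0.22, -0.05 and -0.11 in the wild-type brains, a difference of 0.24 ± 0.06 that just missed the threshold (limma adjusted p = 0.051). Orc1, the subunit whose transcript is known to follow E2F, had 0.02, 0.13 and 0.16 in the mutants and -0.02, -0.13 and -0.08 in the wild types, a difference of 0.18 ± 0.05 (limma adjusted p = 0.086). Orc6 had 0.08, 0.13 and 0.04 in the mutants and -0.19, -0.06 and -0.04 in the wild types, a difference of 0.18 ± 0.05. The genotypes did not overlap in these 3 genes. They overlapped in Orc3, Orc4 and Orc5, whose differences were 0.04, 0.08 and 0.03 with SEs of 0.06 to 0.08. Orc3 was the only one of the 52 genes whose difference turned negative under any alternative processing, to -0.02 without wild-type replicate 1. Without mutant replicate 1, Orc1 and Orc2 passed. With array weights 3 subunits passed, where 11.3% of all rows rose.

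Origin firing genes were split by the threshold, which did not follow the size of the difference. Of 8 genes that turn loaded helicases into moving ones, 4 rose, with a median difference of 0.28. Dbf4, the activating partner of the Cdc7 kinase, had values of 0.13, 0.25 and 0.38 in the mutant brains and -0.38, -0.29 and -0.13 in the wild-type brains, a difference of 0.52 ± 0.08 (limma adjusted p = 0.013). Its catalytic partner Cdc7 had -0.02, 0.02 and 0.08 in the mutants and -0.09, -0.15 and 0.02 in the wild types, a difference of 0.10 ± 0.06 (limma adjusted p = 0.35). The genotypes were apart for Dbf4 and overlapped for Cdc7, and the difference between the partners was not tested. Mcm10, a helicase activator, had 0.11, 0.24 and 0.15 in the mutants and -0.15, -0.14 and -0.11 in the wild types, a difference of 0.30 ± 0.05. Cdc45, a subunit of the active helicase, had 0.07, 0.23 and 0.28 in the mutants and -0.17, -0.08 and -0.07 in the wild types, a difference of 0.30 ± 0.06. The wild types lay close together for Mcm10, and in Cdc45 mutant replicate 1 lay nearest to them. Of the 4 GINS subunits, Gins2 rose by 0.26 ± 0.06, and Gins1, Gins3 and Gins4 had differences of 0.31 ± 0.10, 0.22 ± 0.08 and 0.07 ± 0.07 that did not pass. The 4 rises of this role became 2 without mutant array 3 and 0 with either array numbered 2 left out. They became 6 with the replicate number as a block and 6 with array weights, where 3.86% and 11.3% of all rows rose.

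**Figure D2:**
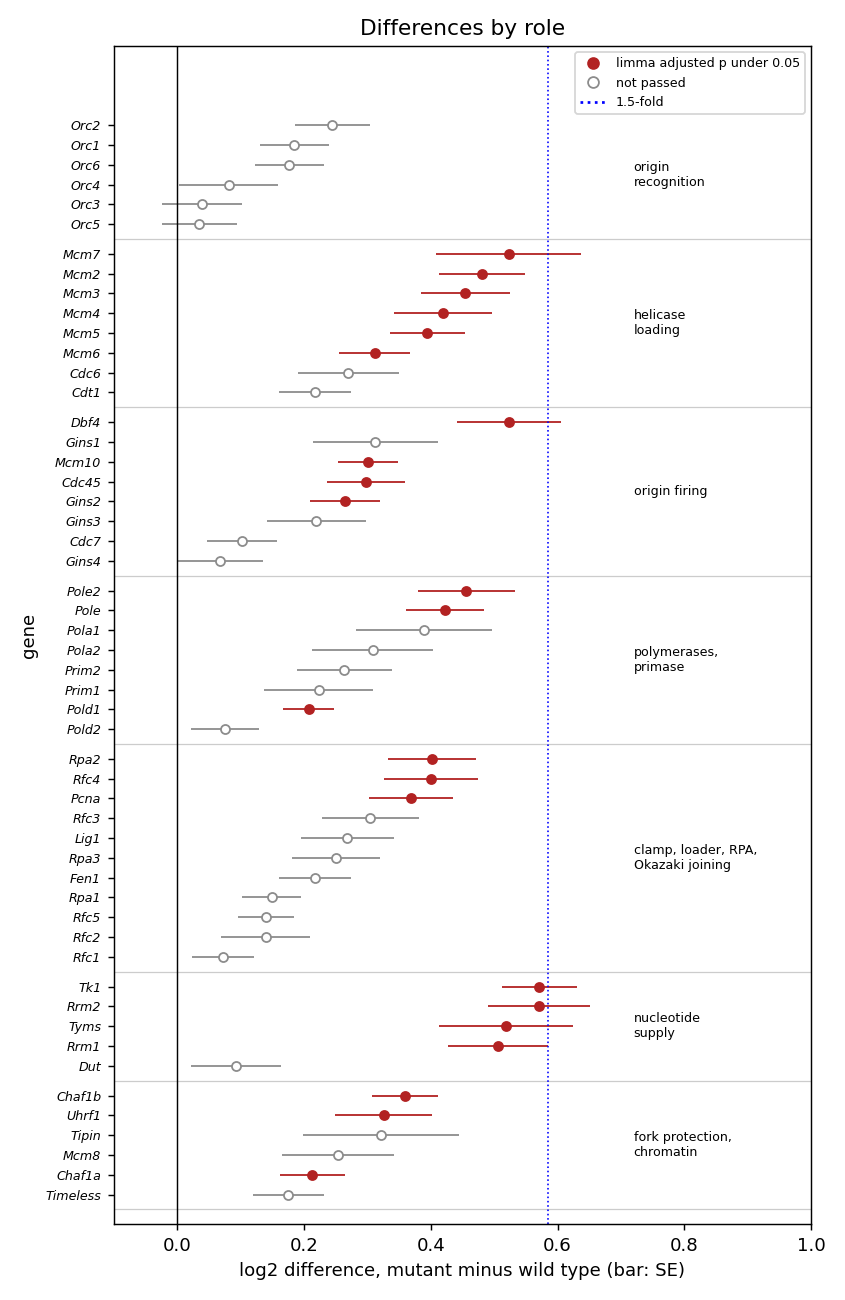
Log2 difference, mutant minus wild type, with its SE (bars) for each of the 52 genes, grouped by role and ordered by size within it. Filled red points mark the 23 genes with a limma adjusted p under 0.05, and all points lie above 0 and below the dotted 1.5-fold line.

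Among the polymerases, both subunits of DNA polymerase epsilon on the list rose, and none of the 4 subunits of polymerase alpha and primase passed. Whether these groups differ from each other was not tested. Pole, the catalytic subunit of the leading-strand polymerase epsilon, had values of 0.14, 0.21 and 0.25 in the mutant brains and -0.34, -0.18 and -0.14 in the wild-type brains, a difference of 0.42 ± 0.06 (limma adjusted p = 0.011). Its partner Pole2 had 0.12, 0.29 and 0.20 in the mutants and -0.39, -0.26 and -0.12 in the wild types, a difference of 0.46 ± 0.08. Pold1, the catalytic subunit of the lagging-strand polymerase delta, had 0.08, 0.11 and 0.13 in the mutants and -0.12, -0.08 and -0.10 in the wild types, a difference of 0.21 ± 0.04. Pold1 moved less than Pole, but its arrays scattered little within each genotype. Pold2 had a difference of 0.08 ± 0.05 (limma adjusted p = 0.48), with overlapping genotypes. Pola1, Pola2, Prim1 and Prim2, which lay down the primers, had differences of 0.39 ± 0.11, 0.31 ± 0.09, 0.22 ± 0.09 and 0.26 ± 0.08. In all 4 the genotypes were apart and wild-type replicate 1 was the lowest array, at -0.42, -0.33, -0.36 and -0.35. The 3 rises among the 8 genes became 1 without mutant array 3 or wild-type array 2, and 0 without mutant array 2. With the replicate number as a block or with array weights they became 6, as Pola1, Pola2 and Prim2 passed too. In those fits 3.86% and 11.3% of all rows rose.

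Clamp, clamp loader, RPA and Okazaki fragment genes had a median difference of 0.25, and 3 of 11 rose. Rpa2, a subunit of the RPA complex that coats single-stranded DNA, had values of 0.11, 0.18 and 0.22 in the mutant brains and -0.37, -0.21 and -0.11 in the wild-type brains, a difference of 0.40 ± 0.07 (limma adjusted p = 0.017). Pcna, the sliding clamp that holds polymerases on DNA, had 0.09, 0.20 and 0.24 in the mutants and -0.30, -0.18 and -0.09 in the wild types, a difference of 0.37 ± 0.07. Rfc4, a subunit of the loader that opens the clamp, had 0.12, 0.13 and 0.19 in the mutants and -0.42, -0.22 and -0.12 in the wild types, a difference of 0.40 ± 0.07. The genotypes were apart in all 3, and in each wild-type replicate 1 was the lowest array. Pcna had a further row with a difference of 0.36 ± 0.07, close to the first. The other RPA subunits did not pass, at 0.15 ± 0.05 for Rpa1 and 0.25 ± 0.07 for Rpa3, whose further row gave 0.43 ± 0.13 and did not pass either. Nor did the other loader subunits, from Rfc1 at 0.07 to Rfc3 at 0.30. Fen1 and Lig1, which trim and join Okazaki fragments, had 0.22 ± 0.06 and 0.27 ± 0.07 (limma adjusted p = 0.063 and 0.071). The 3 rises became 5 without mutant replicate 1, and 0 without mutant array 2, mutant array 3 or wild-type array 2.

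The last role holds genes that protect forks and rebuild chromatin behind them, of which 3 of 6 rose, with a median difference of 0.29. Chaf1b, a subunit of the CAF-1 complex that places histones on new DNA, had values of 0.14, 0.15 and 0.14 in the mutant brains and -0.30, -0.22 and -0.14 in the wild-type brains, a difference of 0.36 ± 0.05 (limma adjusted p = 0.011). Uhrf1, which recruits the maintenance DNA methyltransferase to new DNA, had 0.05, 0.16 and 0.10 in the mutants and -0.34, -0.05 and -0.27 in the wild types, a difference of 0.33 ± 0.08. Chaf1a, the large CAF-1 subunit, had 0.07, 0.07 and 0.21 in the mutants and -0.11, -0.07 and -0.10 in the wild types, a difference of 0.21 ± 0.05. The genotypes were apart in all 3, with Uhrf1 and Chaf1a near the threshold (limma adjusted p = 0.046 and 0.048). The fork partners Timeless and Tipin had differences of 0.18 ± 0.06 and 0.32 ± 0.12 and did not pass. Tipin had the highest SE of the 52 genes, and wild-type replicate 1 was its lowest array at -0.50. Mcm8, which works with Mcm9 in recombination repair, had 0.25 ± 0.09 (limma adjusted p = 0.14). The 3 rises became 1 with any wild-type array or mutant array 3 left out, with unnamed rows tested too or with array medians set equal, and 0 without mutant array 2.

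Over the leave-one-out fits, Tk1, in the row used, passed in all 6, and Mcm2, Mcm5, Pole, Rrm1 and Rrm2 in 5. The further Tk1 row, with a smaller difference, was not followed through these fits. The remaining 17 genes that rose passed in fewer. Without mutant replicate 2, Tk1 was the only one of the 52 to pass, while the median difference was 0.25 and all 52 differences were positive. Without wild-type replicate 1, 51 were positive. Where genotypes do not overlap, leaving out an array cannot turn a sign, so kept signs add no support.

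The wider replication list moved in the same direction. Of 37 other replication factors measured, 11 rose and 0 fell, with a median difference of 0.23. Asf1b, a histone chaperone, rose by 0.43 ± 0.05, Topbp1, a scaffold of origin firing and of checkpoint signalling, by 0.38 ± 0.07, and Ticrr, which helps fire origins, by 0.34 ± 0.06. Esco2, the acetyltransferase that makes sister chromatids cohere in S phase, rose by 0.68 ± 0.12, 1.60-fold. The count was 17, 1 and 2 without mutant arrays 1, 2 and 3, and 5, 3 and 8 without wild-type arrays 1, 2 and 3. Of 11 replication checkpoint genes, Chek1 and Wee1, kinases that restrain Cdk activity, rose by 0.53 ± 0.08 and 0.36 ± 0.07, while Rad1 and Etaa1 had 0.20 ± 0.06 and 0.14 ± 0.07 and did not pass. The checkpoint count was 0 with either array numbered 2 left out and 1 without mutant array 3.

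Genes of general nucleotide synthesis were not called. Of 28 measured, 0 passed by limma, with 3 in each direction at an unadjusted p under 0.05, and the median difference was 0.03. Of all 23410 rows, 2.34% rose, 4.13% fell and 5115 had an unadjusted p under 0.05. The counts of this list lie near those shares and do not set it apart. The smallest p-values belonged to Adss and Gart, enzymes of purine synthesis, at -0.16 ± 0.05 and 0.12 ± 0.04, to Impdh1, of guanine nucleotide synthesis, at -0.19 ± 0.06, and to Umps, of pyrimidine synthesis, at 0.14 ± 0.05. Without mutant array 1, where 3.68% of all rows rose, a gene of this list rose. With array weights 4 rose and 2 fell, where 11.3% of all rows rose. The share of all rows that fell with array weights was not counted. A list of 23 counterparts, enzymes of like chemistry that serve mitochondria, repair or salvage outside S phase, had a median of 0.06. Of these Ssbp1, the mitochondrial single-strand binding protein, rose by 0.23 ± 0.05 (limma adjusted p = 0.048), and 22 did not pass. The translesion polymerase Polh, the end-joining polymerase Polq and the polymerase zeta subunit Rev3l had 0.18 ± 0.06, 0.22 ± 0.08 and -0.12 ± 0.04. In 5 of the 23 counterparts all mutants lay above all wild types, beside 13.1% of all rows. In 1 they all lay below, beside 2949 of the 23410 rows. The number of counterparts that rose was 2 without mutant array 1. It was 0 with any other array left out, with unnamed rows tested too, with array medians set equal or with cyclic loess. With array weights 4 counterparts rose and 2 fell, where 11.3% of all rows rose.

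These pairs were chosen after their values were seen. Rrm2 differed by 0.57 ± 0.08 and Rrm2b, the p53-responsive small subunit used outside S phase, by 0.06 ± 0.06. The values of Rrm2b were -0.05, 0.07 and 0.05 in the mutant brains and -0.05, 0.06 and -0.13 in the wild-type brains. Tk1 differed by 0.57 ± 0.06 and the mitochondrial kinase gene Tk2 by -0.07 ± 0.05, with -0.04, 0.03 and -0.05 in the mutants and -0.03, 0.11 and 0.07 in the wild types. In both counterparts the genotypes overlapped. They were apart in the counterparts Dck, at 0.19 ± 0.07 and not past the threshold, and Ssbp1, which rose by 0.23 ± 0.05. Lig1 differed by 0.27 ± 0.07, and Lig3 and Lig4, ligases of other repair routes, by 0.13 ± 0.07 and 0.09 ± 0.06, none of them past the threshold. Whether a replication gene differed from its counterpart was not tested.

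**Figure D3:**
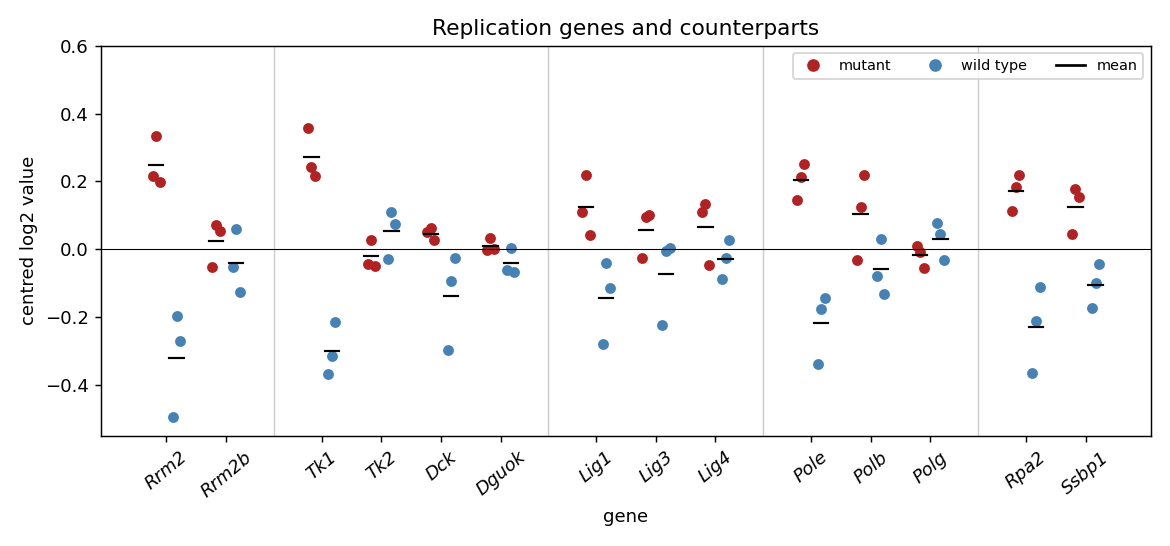
Centred log2 values of single arrays (points, mutant left of wild type; black bars, means of 3) for 5 replication genes, each followed by enzymes of like chemistry that act largely outside S phase. The genotypes are apart for Rrm2, Tk1, Lig1, Pole and Rpa2, and also for the counterparts Dck and Ssbp1. They overlap for Rrm2b, Tk2, Dguok, Lig3, Lig4, Polb and Polg. Not drawn are Polh, Polq and Poll, further polymerases of the counterpart list in which all mutants lay above all wild types. The genes were grouped by known function after their values were seen.

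The regulators of S phase entry rose in part. Of 33 E2F, Rb and G1 genes, 11 rose and 0 fell, with a median of 0.20. The cyclin D genes Ccnd1 and Ccnd2, which start the G1 programme, rose by 0.40 ± 0.04 and 0.37 ± 0.06, Cdk2, the S phase kinase, by 0.51 ± 0.07, and E2f7, an E2F repressor that is itself an E2F target, by 0.31 ± 0.04. It was 14, 1 and 4 with mutant arrays 1, 2 and 3 left out, and 6, 3 and 6 with wild-type arrays 1, 2 and 3 left out.

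Genes of mitosis moved with those of replication in the same arrays. Of 30 measured, 26 rose, with a median of 0.56 beside 0.27 for the replication genes, and 28, 2 and 22 rose without mutant replicates 1, 2 and 3 and 23, 18 and 27 without wild-type replicates 1, 2 and 3. The gene for cyclin A2, Ccna2, rose by 0.59 ± 0.07 and that of the spindle motor Kif11 by 0.74 ± 0.08. Mki67, a marker of cycling cells, rose by 0.56 ± 0.07 and Top2a, one of the topoisomerase II genes, by 0.72 ± 0.10. The per-array medians of the mitotic list were 0.18, 0.31 and 0.39 in mutant replicates 1, 2 and 3 and -0.41, -0.20 and -0.18 in wild-type replicates 1, 2 and 3. Wild-type replicate 1 was lowest and mutant replicate 1 lowest of the mutants in both lists, while the top array was mutant replicate 2 for replication and mutant replicate 3 for mitosis. Mitotic and replication genes are read in the same brains, and the difference between the lists was not tested.

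**Figure D4:**
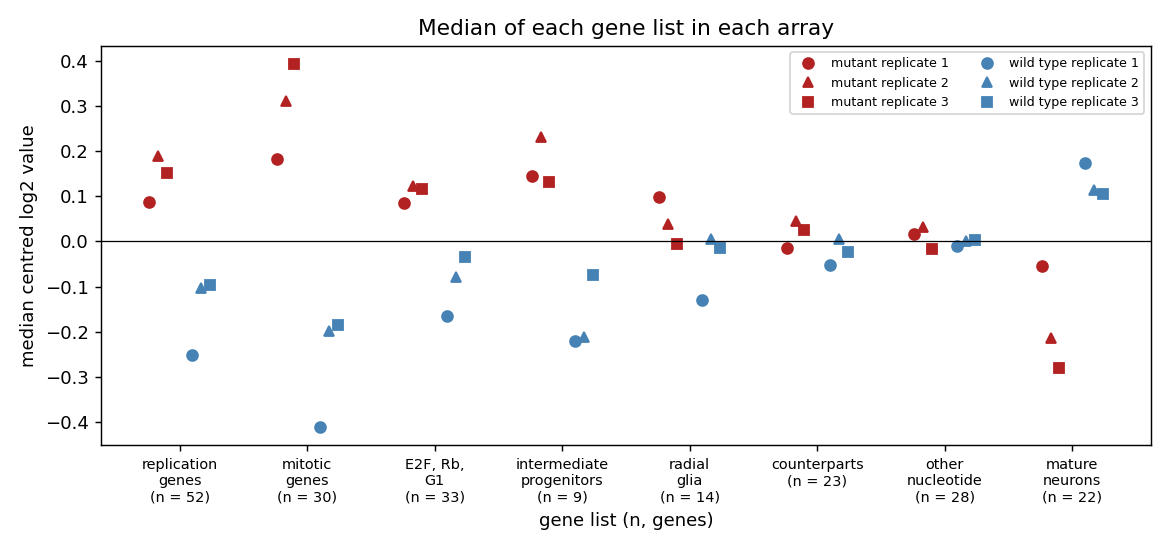
Median centred log2 value of 8 gene lists in each brain (red, mutant; blue, wild type; marker shape, replicate number; n, genes). Replication, mitotic, E2F and intermediate progenitor lists have all 3 mutant points above all 3 wild-type points, mature neuron markers have them below, and the radial glia, counterpart and other nucleotide lists overlap.

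Markers of cell types moved as well, and their part in the rise of replication genes was not tested. Of 9 intermediate progenitor markers, the dividing neuron precursors, 7 rose, among them Gadd45g by 0.63 ± 0.05 and the proneural factor Neurog2 by 0.75 ± 0.08, with array medians of 0.13 to 0.23 in the mutants and -0.22 to -0.07 in the wild types. Of 14 radial glia markers, the ventricular stem cells, 4 rose, Prom1 by 0.42 ± 0.05 among them, and Tnc fell by 0.44 ± 0.06, with array medians of -0.01 to 0.10 in the mutants and -0.13 to 0.01 in the wild types. Of 22 mature neuron markers, 10 fell and 12 did not pass, with Camk2b at -0.57 ± 0.06 and Nrgn at -0.68 ± 0.08, and array medians of -0.28 to -0.05 in the mutants and 0.11 to 0.17 in the wild types. Without mutant replicate 2, 2 progenitor markers and 1 radial glia marker rose, and 1 neuron marker fell. Without wild-type replicate 2 these counts were 3, 1 and 4, and without wild-type replicate 1 they were 4, 3 and 6. Without mutant array 3 the radial glia count was 2, and no radial glia marker fell without mutant array 2 or wild-type array 2.

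Other cell types the dissection could hold were read in the same way. Of 13 red cell lineage markers, a lineage whose precursors divide, the globins Hbb-y and Hba-x, made by embryonic red cells, rose by 3.79 ± 0.10 and 1.44 ± 0.07, and Ank1 fell, with array medians of 0.00 to 0.03 in the mutants and -0.06 to -0.03 in the wild types. No red cell marker fell with mutant array 2 or 3 or wild-type array 1 or 2 left out. Of 9 astrocyte markers 4 fell, with Slc4a4 at -0.80 ± 0.11 and Aqp4 at -0.51 ± 0.10, and 0 did so with either array numbered 2 left out, 1 without mutant array 3 and 1 without wild-type array 1. Of 7 oligodendrocyte lineage markers Pdgfra and Olig1 fell, by 0.58 ± 0.09 and 0.72 ± 0.16, and 0 passed with either array numbered 2 left out and 1 without mutant array 3 or wild-type array 1 or 3. Of 9 meningeal markers 3 fell, Ptgds by 1.19 ± 0.11 and Ogn by 0.54 ± 0.07 among them, with 1 left without mutant replicate 2. Cldn5 was the only one of 10 endothelial and pericyte markers to pass, at -0.35 ± 0.07 beside Flt1 at -0.13 ± 0.05, and the count stayed at 1 without mutant array 1 or wild-type array 3 and was 0 in the other 4 leave-one-out fits. None of 10 microglia markers passed by limma, with 1 at an unadjusted p under 0.05, and C1qc and C1qb had -0.26 ± 0.11 and -0.11 ± 0.06. Without mutant array 1, 1 microglia marker fell. None of 8 choroid plexus markers passed either, with 1 at an unadjusted p under 0.05, and Otx2 and Aqp1 had 0.64 ± 0.18 and -0.18 ± 0.10. An unadjusted p that low was found in 5115 of all 23410 rows. A choroid plexus marker fell without mutant array 1, and 1 rose without wild-type array 1.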

How the data were processed

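RMA was the authors' normalization, as the deposited design says, with Affymetrix Expression Console named in the submitters' processing notes. The deposited values are log2, centred on each row's median over the 6 arrays, a step no source used here describes. Neither the level of probe summary nor a genome build for the array is given in the sources used here, and intervals rest on the number of arrays. Gene names came from the platform annotation, with symbols updated by gene identifier through a RefSeq table of GRCm38.p6. Of 28856 rows, 23410 named a gene and were tested. A gene with several rows used the one with most accessions, and 3 of the 52 genes had several.

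The genotype comparison used limma 3.58.1 (R 4.3.3, lmFit and eBayes, two-sided, Benjamini-Hochberg adjustment, threshold 0.05), and the fit was tested on simulated data. Gene lists are described by counts and medians, with no list test. The members, the 16 other lists and the tests were chosen with earlier results of these data known. Of 281 genes on the other lists, 273 had a row. Per-array values are given for the 3 genes of smallest p in each of 7 roles. Those of Cdc7, Rrm2b and Tk2, and the differences of Lig3, Lig4 and Dck, were added after their values were seen. The 4 genes of smallest p are named from each pathway list and 2 from each mitotic or cell type list. Tdp2, Mki67 and Top2a were always named. Figures were drawn with matplotlib 3.10.9. The fit was repeated with a block for replicate number, without each array in turn, with unnamed rows included, with equal array medians, cyclic loess, array weights, a robust variance prior, an unmoderated test, the mean of a gene's rows and an unadjusted p.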

Additional observations from a re-analysis of the deposited data

How the results depend on the processing

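The number of the 52 genes that rose (23) was 36 with the replicate number as a block, 41 with array weights, 43 at an unadjusted p under 0.05, and 0 with an unmoderated test, in which 35 had an unadjusted p under 0.05. With an array left out it ranged from 1 to 28. The share of all rows that rose was 3.86% with the block and 11.3% with array weights, and 2345 of 23410 rows rose at the unadjusted p. No gene fell in any of these fits. The number of genes past 1.5-fold (0) was 1 with cyclic loess and ranged from 0 to 5 with an array left out. The other alternatives gave 20 to 25 rises, and the median difference stayed between 0.21 and 0.31. Tdp2 lost its call in the unmoderated test (difference -2.07, limma not used, adjusted p = 0.082), and that test called 0 rows higher. The cause of these changes was not tested. Replicate numbers were not shown to pair brains. Deviations of same-numbered arrays correlated at 0.21, 0.05 and 0.20, and those of differently numbered arrays at -0.22 to 0.06. Numbers 1 and 3 thus lay above every differently numbered pair. Mutant replicate 2 correlated at 0.06 with wild-type replicate 3 and at 0.05 with its own number. With 3 arrays per genotype, and no levels, signal over background could not be assessed.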
